A study of Mus musculus with 18 samples.

Results

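The ligands and receptors of the tumor necrosis factor (TNF) superfamily were followed in db/db liver and in AML12 hepatocytes given rMSA, where rMSA is recombinant mouse serum albumin. Members were the genes whose symbol begins with Tnfrsf or Tnfsf and a digit, together with Tnf, Fas, Fasl, Cd40, Cd27, Lta, Ltb, Ltbr and Ngfr. This gave 40 members of the 17855 genes in both tables, of which 40 of 16533 had a row in the liver table and 29 of 15579 in the AML12 table. Changes were tested for members with a mean of at least 1 TPM (a level that is scaled for transcript length and for the size of the library) over the libraries of a table, which were 18 in liver and 17 in AML12.

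The liver samples came from male db/db mice (B6.Cg-dock7m Leprdb/++/J), an obese and diabetic strain with a defective leptin receptor. One group received rMSA intravenously (1.5 mg for each gram the mouse weighed), once every 3 weeks for 3 injections in 9 weeks, and the other received an equal volume of saline (n = 3 mice each, age not given in the labels). AML12 is an immortalized mouse hepatocyte line grown in medium with insulin and dexamethasone. All AML12 groups were starved of serum overnight and then given vehicle, 10 nM insulin, 600 μM rMSA or both agents for 24 h (n = 3 libraries each), and nothing in the labels says whether these were separate cultures. The AML12 comparisons bear on the TNF signaling pathway, which the study named among the pathways of the genes that changed in these cells.

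Ligands of the superfamily are mostly trimers anchored in the cell membrane, and each binds 1 or a few receptors. Death domain receptors such as TNFR1 (Tnfrsf1a), Fas and the TRAIL receptor (Tnfrsf10b) can recruit caspase-activating adaptors, while the other receptors bind TRAF proteins and switch on NF-kappaB and MAP kinases. Decoy receptors bind a ligand but carry no working death domain. In liver, TNFR1 and Fas are known for their part in hepatocyte death and regeneration, and the TWEAK receptor Fn14 (Tnfrsf12a) for its part in progenitor cell growth and injury.

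All libraries summed to about the same total TPM, and the number of reads behind them is unknown, since TPM keeps no depth. Tables for liver and AML12 were made separately, so levels set side by side between them were not tested. In the AML12 table every gene had a value above 0 in at least 1 insulin library, while 713 genes were at 0 in all vehicle libraries, so members with no row there may differ from those that have one. Insulin libraries 1 and 2 stood apart, with 33.7% and 36.3% of their TPM in ribosomal protein genes against 22.3% to 28.2% in the other 10 AML12 libraries. The median fold change of all tested genes lay away from 0 on the log2 scale, at 0.12 for rMSA against saline in liver, 0.061 in AML12 for rMSA against vehicle, and 0.21 in the comparison of rMSA + insulin with insulin. Median centring brought the first to −0.022 and the last to −0.042, and it moved the share of changed genes that were higher from 72.3% to 52.3%, from 75.7% to 64.6% and from 84.2% to 48.9%, in the same order. The AML12 libraries expressed Hnf4a at a mean of 107.6 TPM and Alb at 58.2 TPM under vehicle, Cps1 was at 0 in all vehicle libraries, and the cholangiocyte marker Krt19 stood at 1316 TPM.

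In untreated AML12 hepatocytes the family was dominated by receptors. Tnfrsf12a, the receptor for TWEAK, had the highest level at 272.8 ± 14.6 TPM (SD, n = 3), followed by Ltbr, the lymphotoxin beta receptor, at 146.8 ± 5.4 TPM. The TWEAK ligand Tnfsf12 stood at 97.3 ± 5.1 TPM, and the decoy TRAIL receptor Tnfrsf23 at 72.3 ± 3.4 TPM could not be set apart from Tnfrsf1a at 70.96 ± 1.52 TPM, since their libraries overlapped. In saline-treated liver Ltbr came first at 172.3 ± 23.5 TPM and Tnfrsf1a next at 93.0 ± 5.2 TPM. Tnfrsf12a at 24.6 ± 5.7 TPM overlapped Tnfrsf1b, which encodes TNFR2, at 22.8 ± 1.1 TPM. Tnfrsf23 stood at 0.55 ± 0.09 TPM and Tnfrsf9 at 0.20 TPM in the same livers, below the 1 TPM limit.

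**Figure D1:**
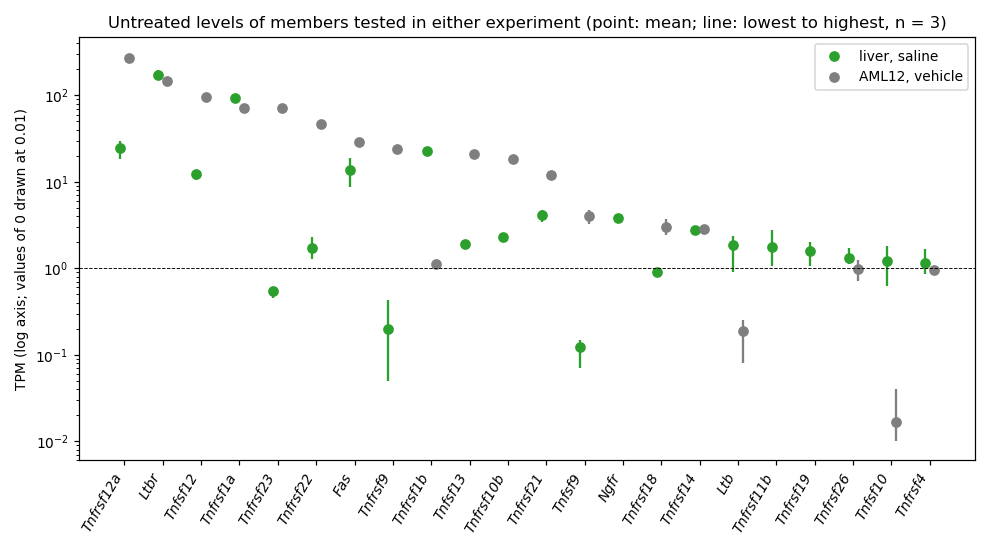
Level in TPM on a log axis of the members tested in liver or in AML12, for saline-treated liver (green) and vehicle-treated AML12 (grey), with the mean as a point and the lowest to highest of 3 libraries as a line. Ltbr and Tnfrsf1a were high in both, whereas Tnfrsf9, Tnfrsf22 and Tnfrsf23 stood above 20 TPM in AML12 and below 3 TPM in liver.

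Members below the limit included 11 of the 15 ligands in liver and 7 of the 10 in AML12. In liver they were 22, namely Cd27, Cd40, Fasl, Lta, Tnf, Tnfrsf11a, Tnfrsf13b, Tnfrsf13c, Tnfrsf17, Tnfrsf18, Tnfrsf25, Tnfrsf4, Tnfrsf8, Tnfrsf9, Tnfsf11, Tnfsf13b, Tnfsf14, Tnfsf15, Tnfsf18, Tnfsf4, Tnfsf8 and Tnfsf9, with 0 to 1.69 TPM in single libraries. In AML12 they were 12, namely Cd27, Lta, Ltb, Tnf, Tnfrsf11a, Tnfrsf13b, Tnfrsf13c, Tnfrsf8, Tnfsf10, Tnfsf13b, Tnfsf14 and Tnfsf15, with 0 to 1.58 TPM. Tnf itself, the founding ligand, was listed at 0.05 to 1.16 TPM in liver and at 0 to 0.45 TPM in AML12.

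rMSA up-regulated receptors of both death-signaling and TRAF-binding kinds in AML12 hepatocytes, and 1 ligand. Against vehicle, 8 of the 17 members tested rose and 0 fell (limma on log2 of TPM + 1, adjusted over all tested genes), where 5.9% of all 10826 tested genes rose and 1.89% fell, 7.8% in all. The median log2 fold change of the 17 was 0.50. The libraries of the groups did not overlap for 12 members, all higher with rMSA, against 25.5% of all tested genes.

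Tnfrsf9 encodes 4-1BB (CD137), a costimulatory receptor best known from T cells. It measured 24.5, 23.8 and 23.9 TPM in the vehicle libraries and 69.9, 71.6 and 63.3 TPM with rMSA. The lowest rMSA library lay far above the highest vehicle library, and the log2 fold change was 1.46 ± 0.13 (SE, adjusted p = 6.9e-05). Its ligand Tnfsf9 (4-1BBL) was at 3.22, 4.68 and 4.15 TPM under vehicle and at 7.26, 6.91 and 7.89 TPM with rMSA. It was the only ligand that rose, by 0.74 ± 0.14 (adjusted p = 0.0065).

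The decoy receptors Tnfrsf23 and Tnfrsf22 lie side by side on chromosome 7 and share 719 stretches of 50 bases, 17.3% of those of Tnfrsf22, so reads from the shared part cannot be assigned with certainty. Tnfrsf23 stood at 76.1, 69.7 and 71.1 TPM under vehicle and at 207, 185 and 168 TPM with rMSA, a log2 change of 1.35 ± 0.13 (adjusted p = 9.8e-05). Tnfrsf22 went from 47.9, 45.6 and 45.8 TPM to 82.6, 79.3 and 71.2 TPM, a change of 0.73 ± 0.12 (adjusted p = 0.0027). Both groups were separate for both genes. Tnfrsf26, the neighbour of this pair, shared no such stretch with them and measured 0.98, 0.71 and 1.25 TPM under vehicle and 1.59, 1.30 and 1.16 TPM with rMSA (log2 0.25 ± 0.13, adjusted p = 0.33).

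Of the death domain receptors, Fas and Tnfrsf1a rose. Fas was at 29.2, 27.4 and 29.3 TPM under vehicle and at 65.8, 62.3 and 61.5 TPM with rMSA, with every treated library above every control, and a log2 change of 1.11 ± 0.15 (adjusted p = 0.0011). Tnfrsf1a was at 71.0, 69.4 and 72.5 TPM and at 102.6, 94.6 and 92.8 TPM, a smaller change of 0.44 ± 0.09 (adjusted p = 0.0094). Tnfrsf10b, the TRAIL receptor that signals death, was at 18.5 ± 0.8 TPM and 26.8 ± 2.8 TPM, separate between groups but not past the test (log2 0.51 ± 0.17, adjusted p = 0.11). Tnfrsf21, known as DR6, was at 12.0 ± 0.7 TPM and 18.96 ± 1.24 TPM (log2 0.62 ± 0.24, adjusted p = 0.18), and it passed with median centring (adjusted p = 0.0051).

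Tnfrsf1b, the receptor TNFR2 that lacks a death domain, rose from 1.09, 1.16 and 1.08 TPM under vehicle to 3.55, 3.09 and 2.90 TPM with rMSA, a log2 change of 0.98 ± 0.15 (adjusted p = 0.0018). Tnfrsf12a rose from 256, 283 and 279 TPM to 357, 386 and 415 TPM, a change of 0.50 ± 0.11 (adjusted p = 0.017). Ltbr was at 146.8 ± 5.4 TPM and 159.5 ± 4.6 TPM (log2 0.12 ± 0.07, adjusted p = 0.47). Tnfrsf4, Tnfrsf14, Tnfrsf18, Tnfsf12 and Tnfsf13, the ligand APRIL, lay between −0.25 and 0.37 on the log2 scale with adjusted p of 0.071 or more. With median centring Tnfrsf1a (adjusted p = 0.35), Tnfrsf12a (adjusted p = 0.40) and Tnfsf9 (adjusted p = 0.056) no longer passed, and with quantile normalization Tnfsf9 (adjusted p = 0.095) and Tnfrsf12a (adjusted p = 0.052) did not. The counts were 7 and 8, which include gained calls, such as that of Tnfrsf21 with median centring. Tnfrsf12a also missed the threshold without any one vehicle library or without rMSA library 2 or 3 (adjusted p of 0.051 to 0.081), and Tnfrsf1a without rMSA library 1 (adjusted p = 0.053).

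**Figure D2:**
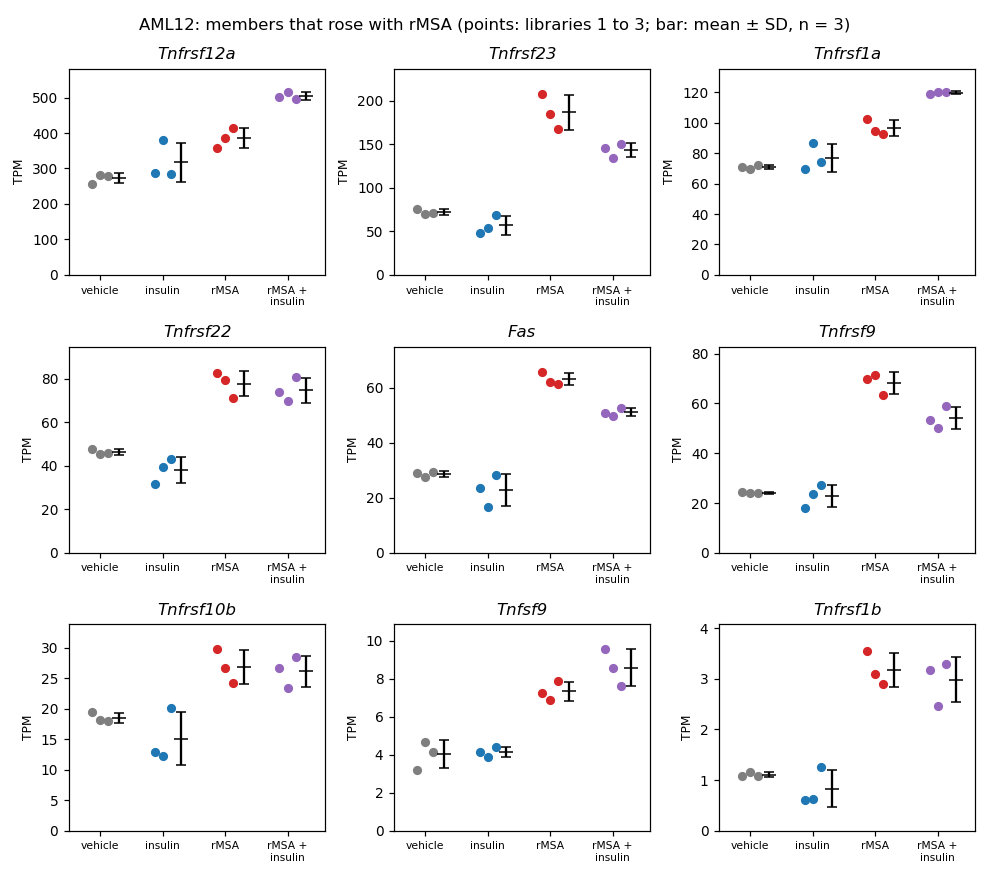
Level in TPM of the 9 members that rose with rMSA in AML12 in either comparison, with 1 point for each of 3 libraries under vehicle (grey), insulin (blue), rMSA (red) and rMSA + insulin (purple), and the mean ± SD as a black bar. In all 9 panels the red and purple points lay above the control without rMSA of the same insulin state.

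The bases before the transcript start of the 6 members that rose in AML12 and have a RefSeq promoter are shown because these genes moved together and NF-kappaB and AP-1 are the factors that the receptors are known to switch on. RefSeq promoter sequences (GRCm38.p6) matched 32 of the 40 members with 36 starts. The 250 bases before each start were searched on both strands for the NF-kappaB consensus and for the AP-1 motif TGANTCA, which do not overlap in the sequences printed, and matches are in capitals. Of all 32851 RefSeq promoters 3.9% held the first and 6.75% the second. Among the 36 member promoters 3 held the first (Tnfrsf9, Ltb and Tnfrsf8) and 6 the second (Tnfrsf9, Fas, Tnfrsf8, Tnfsf13, Tnfsf13b and Tnfsf14). A match is a run of letters and was not tested for binding.

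Tnfrsf9, second start, plus strand, chr4:150927749-150927998: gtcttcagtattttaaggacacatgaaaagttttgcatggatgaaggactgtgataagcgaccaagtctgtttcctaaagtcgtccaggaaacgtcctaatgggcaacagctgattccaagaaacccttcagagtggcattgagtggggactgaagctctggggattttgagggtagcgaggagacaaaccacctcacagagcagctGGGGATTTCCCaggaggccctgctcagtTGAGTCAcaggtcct
Fas, plus strand, chr19:34290409-34290658: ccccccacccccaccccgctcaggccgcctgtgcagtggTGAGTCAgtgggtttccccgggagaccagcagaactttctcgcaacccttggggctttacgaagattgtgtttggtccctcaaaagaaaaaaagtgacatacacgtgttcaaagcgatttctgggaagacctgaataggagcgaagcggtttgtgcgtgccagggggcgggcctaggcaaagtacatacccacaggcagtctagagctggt
Tnfrsf23, minus strand, chr7:143685876-143686125: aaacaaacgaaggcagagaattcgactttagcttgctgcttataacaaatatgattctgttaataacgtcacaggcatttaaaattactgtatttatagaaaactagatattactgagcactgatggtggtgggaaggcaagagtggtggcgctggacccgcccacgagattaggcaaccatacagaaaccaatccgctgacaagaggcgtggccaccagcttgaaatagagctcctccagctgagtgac
Tnfrsf1b, minus strand, chr4:145246871-145247120: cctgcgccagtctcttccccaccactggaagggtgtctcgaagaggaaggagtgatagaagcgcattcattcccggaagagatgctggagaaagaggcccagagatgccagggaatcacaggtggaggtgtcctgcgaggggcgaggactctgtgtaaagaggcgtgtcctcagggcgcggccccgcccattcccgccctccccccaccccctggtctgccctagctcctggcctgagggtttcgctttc
Tnfrsf12a, minus strand, chr17:23677450-23677699: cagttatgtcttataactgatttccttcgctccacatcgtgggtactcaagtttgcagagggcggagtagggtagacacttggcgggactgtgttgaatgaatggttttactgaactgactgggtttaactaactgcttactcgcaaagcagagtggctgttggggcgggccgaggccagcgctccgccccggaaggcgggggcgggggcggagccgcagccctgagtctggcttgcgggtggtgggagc
Tnfrsf1a, plus strand, chr6:125349473-125349722: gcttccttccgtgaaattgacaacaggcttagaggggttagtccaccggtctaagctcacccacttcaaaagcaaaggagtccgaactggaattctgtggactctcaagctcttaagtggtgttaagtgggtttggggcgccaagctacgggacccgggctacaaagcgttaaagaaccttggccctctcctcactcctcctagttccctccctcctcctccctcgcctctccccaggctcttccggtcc

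In Tnfrsf9 the NF-kappaB match ended 32 bases and the AP-1 match 8 bases before the second of its RefSeq starts, while the window of its first start held neither. In Fas the AP-1 match ended 204 bases before the start. The windows of Tnfrsf23, Tnfrsf1b, Tnfrsf12a and Tnfrsf1a, which rose as well, held no match to either set of letters.

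The same receptors rose with rMSA when insulin was present. Against insulin alone, 9 of 17 members rose and 0 fell, where 14.5% of all tested genes rose and 2.73% fell, 17.3% in all, and the 9 held all 8 that rose against vehicle plus Tnfrsf10b. The median log2 fold change was 0.68 for the members. The groups did not overlap for 10 members that were higher and 1 that was lower, against 20.7% and 4.81% of all tested genes. Tnfrsf23 stood at 48.05, 53.95 and 69.0 TPM with insulin and at 145, 134 and 149.95 TPM with both (log2 1.33 ± 0.13, adjusted p = 6.7e-05). Tnfrsf9 was at 18.15, 23.6 and 27.0 TPM with insulin and at 53.5, 50.3 and 58.9 TPM with both (log2 1.22 ± 0.13, adjusted p = 0.00014). Fas was at 23.7, 16.6 and 28.3 TPM and at 50.97, 49.8 and 52.8 TPM (log2 1.16 ± 0.15, adjusted p = 0.00057). The treated and control libraries were separate for each of these receptors.

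Tnfrsf1b was at 0.61, 0.62 and 1.25 TPM with insulin and at 3.18, 2.47 and 3.30 TPM with both (log2 1.14 ± 0.15, adjusted p = 0.00049), under 1 TPM in insulin libraries 1 and 2. Tnfrsf22 was at 31.4, 39.5 and 42.9 TPM and at 73.7, 69.6 and 80.6 TPM (log2 0.97 ± 0.12, adjusted p = 0.0003). Tnfsf9 was at 4.17, 3.89 and 4.43 TPM and at 9.56, 8.58 and 7.61 TPM (log2 0.89 ± 0.14, adjusted p = 0.0015). Insulin libraries 1 and 2 were the lower 2 for Tnfrsf1b and Tnfrsf22, and the treated libraries remained above all 3 controls.

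Tnfrsf12a was at 287, 381 and 284 TPM with insulin and at 500.5, 516 and 496 TPM with both, a log2 change of 0.68 ± 0.11 (adjusted p = 0.0019). Tnfrsf1a was at 69.3, 86.8 and 74.4 TPM and at 118.9, 120.4 and 120.3 TPM (log2 0.64 ± 0.09, adjusted p = 0.00065). Tnfrsf10b was at 12.9, 12.3 and 20.1 TPM and at 26.6, 23.3 and 28.4 TPM (log2 0.78 ± 0.17, adjusted p = 0.0097), and without insulin libraries 1 and 2 its change was 0.36 and did not pass (adjusted p = 0.072). With median centring Tnfrsf12a (adjusted p = 0.32), Tnfrsf1a (adjusted p = 0.25) and Tnfsf9 (adjusted p = 0.054) did not pass. The count was 7, which includes a gained call not named here. Fitted on these 2 groups alone, 6 members passed, beside 331 genes in all. Without insulin libraries 1 and 2 together the count was 9, with Ltbr (0.28, adjusted p = 0.019) in place of Tnfrsf10b, beside 3283 genes in all. That leaves 1 insulin library, which is assumed to vary like the other groups.

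The 8 members that did not pass with insulin lay between −0.22 and 0.71 on the log2 scale. Ltbr was at 153.5 ± 12.0 TPM and 179.7 ± 6.1 TPM (log2 0.23 ± 0.07, adjusted p = 0.051). Tnfrsf21 was at 6.68, 4.88 and 11.96 TPM with insulin and at 12.8 ± 2.3 TPM with both (log2 0.71 ± 0.24, adjusted p = 0.072). Tnfsf12 was the only member whose libraries were all lower with both agents, at 96.9 ± 9.0 TPM and 83.1 ± 3.9 TPM (log2 −0.22 ± 0.08, adjusted p = 0.105), and it passed as lower with quantile normalization (−0.38, adjusted p = 0.039). Its exons share 731 bases with the read-through gene Tnfsfm13, which joins Tnfsf12 to Tnfsf13, so their reads cannot be fully told apart.

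No member passed for the interaction of rMSA and insulin, and 4 of all 10826 genes did (0.0369%). At an unadjusted p under 0.05 there was 1 member, Tnfsf13 (log2 −0.40 ± 0.16, adjusted p = 0.69), which was picked out after its values were seen. For the 9 members that rose, the difference between the effects with and without insulin lay between −0.24 and 0.27, with 95% intervals reaching from −0.65 to 0.80. Weighting the arrays by quality gave 10 members for the interaction, beside 3883 genes in all.

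Insulin on its own changed 0 members and 0 genes in all against vehicle (limma), with 6 members at an unadjusted p under 0.05. The log2 fold changes of the 17 members lay between −0.63 and 0.24, and the 3 with the smallest p were Tnfrsf18 (−0.59 ± 0.21), Tnfrsf23 (−0.35 ± 0.13) and Tnfrsf21 (−0.63 ± 0.24), each with an adjusted p of 0.135. Tnfrsf23 turned to 0.041 with median centring. The groups did not overlap for 2 members that were higher and 3 that were lower, against 4.35% and 11.8% of all genes. Without insulin library 3 the count was 9 members, 1 higher and 8 lower, and 7405 genes in all. Median centring gave 13 genes in all and quantile normalization 23, with 0 members in each. On top of rMSA, insulin again changed 0 members, where 4.05% of all tested genes passed, with 9 members at an unadjusted p under 0.05. Here Tnfsf13 (−0.43 ± 0.11, adjusted p = 0.056), Tnfrsf1a (0.31 ± 0.09, adjusted p = 0.071) and Tnfrsf12a (0.39 ± 0.11, adjusted p = 0.074) had the smallest p. The groups did not overlap for 3 members that were higher and 7 that were lower, against 18.6% and 37.1% of all genes. Leaving out an insulin library, which enters this comparison only through the shared spread, gave 2, 9 and 8 members for libraries 1, 2 and 3, beside 513, 3395 and 3340 genes in all. Fitted on the rMSA groups alone 10 members passed, beside 4640 genes in all.

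In db/db liver, receptors of several kinds and the ligand Tnfsf12 rose with rMSA. Of 18 members tested 5 rose and 0 fell (Tnfrsf23 among the 5 was under 1 TPM in every saline liver), where 21.8% of all 11398 tested genes rose and 8.38% fell, so the share of members that changed was close to the 30.2% of all genes. The median log2 fold change of the members was 0.47. The groups did not overlap for 10 members that were higher and 1 that was lower, against 32.7% and 13% of all genes. In whole tissue, fewer cells of a type and less RNA per cell cannot be told apart.

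Tnfrsf19 encodes TROY, a receptor of stem and progenitor cells in several epithelia. It was at 1.06, 2.01 and 1.67 TPM in saline livers and at 6.04, 8.42 and 9.66 TPM with rMSA (log2 1.81 ± 0.21, adjusted p = 0.00052). Tnfrsf23 was at 0.61, 0.45 and 0.60 TPM and at 3.56, 2.95 and 3.30 TPM (log2 1.46 ± 0.15, adjusted p = 0.00024), and it reached the limit of 1 TPM only through the rMSA livers. The rMSA livers lay above the saline livers throughout for both genes. Adding 1 TPM before taking logs makes these fold changes smaller than the ratios of the means, and with 0.1 TPM added they were 2.29 for Tnfrsf19 and 2.37 for Tnfrsf23.

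Tnfrsf12a and its ligand Tnfsf12 both rose. Tnfrsf12a was at 29.8, 18.5 and 25.4 TPM in saline livers and at 43.7, 72.1 and 80.5 TPM with rMSA (log2 1.36 ± 0.25, adjusted p = 0.0044). Tnfsf12 was at 13.3, 10.6 and 13.3 TPM and at 20.1, 25.7 and 26.96 TPM (log2 0.91 ± 0.15, adjusted p = 0.0029). The read-through gene Tnfsfm13 was at 0.97 ± 0.54 TPM and 2.30 ± 0.62 TPM. Tnfrsf21 was at 4.03, 3.48 and 4.76 TPM and at 4.97, 7.23 and 8.41 TPM (log2 0.61 ± 0.20, adjusted p = 0.048), with the lowest rMSA liver just above the highest saline liver. It lost its call with no filter on low values (adjusted p = 0.1), with median centring (adjusted p = 0.087), with quantile normalization (adjusted p = 0.11) and without saline liver 1 or 2 or rMSA liver 2 or 3 (adjusted p of 0.1 to 0.15). The rMSA liver 1 had the lowest level among the treated livers for Tnfrsf19, Tnfrsf12a, Tnfsf12 and Tnfrsf21.

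**Figure D3:**
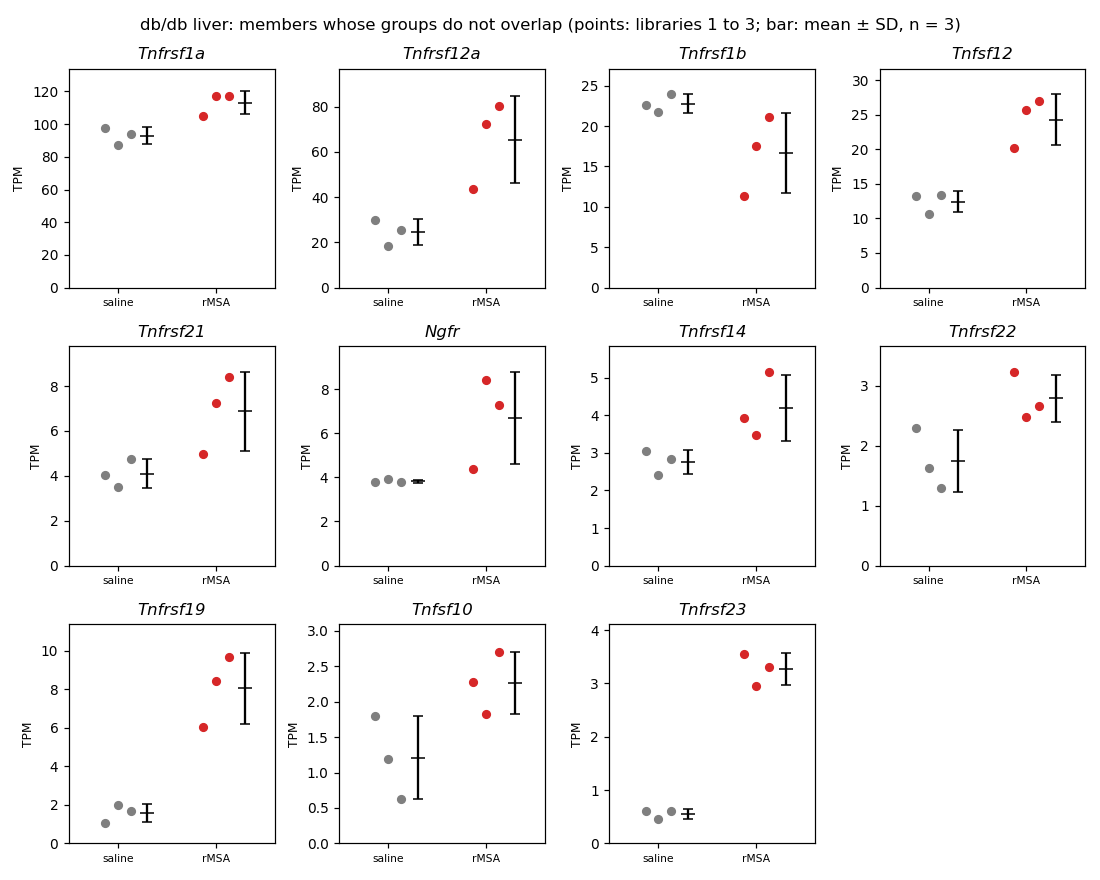
Level in TPM of the 11 members whose libraries did not overlap between groups in db/db liver, with 1 point per mouse for saline (grey) and rMSA (red) and the mean ± SD of 3 mice as a black bar. All but Tnfrsf1b were higher with rMSA, and 5 of the 11 passed the test.

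Among members that did not pass, Tnfrsf1b was the only one lower in every rMSA liver, at 22.6, 21.75 and 24.0 TPM with saline and at 11.4, 17.5 and 21.1 TPM with rMSA (log2 −0.47 ± 0.20, adjusted p = 0.12). With median centring it passed as lower (−0.61, adjusted p = 0.036), and also with quantile normalization (−0.58, adjusted p = 0.038), so that 4 members rose and 1 fell under either scaling. Ngfr, the p75 neurotrophin receptor, was at 3.78, 3.91 and 3.79 TPM and at 4.39, 8.42 and 7.28 TPM (log2 0.63 ± 0.21, adjusted p = 0.053). Tnfrsf1a was at 93.0 ± 5.2 TPM and 113.1 ± 7.1 TPM (log2 0.28 ± 0.10, adjusted p = 0.062). The ligand Tnfsf10, known as TRAIL, was at 1.21 ± 0.59 TPM and 2.26 ± 0.44 TPM (adjusted p = 0.08). Fas was at 13.7 ± 5.1 TPM and 16.0 ± 3.7 TPM (log2 0.25 ± 0.27, adjusted p = 0.53), with overlapping livers. The remaining members, Ltb, Ltbr, Tnfrsf10b, Tnfrsf11b, Tnfrsf14, Tnfrsf22, Tnfrsf26 and Tnfsf13, lay between −0.20 and 0.56 with adjusted p of 0.076 or more.

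**Figure D4:**
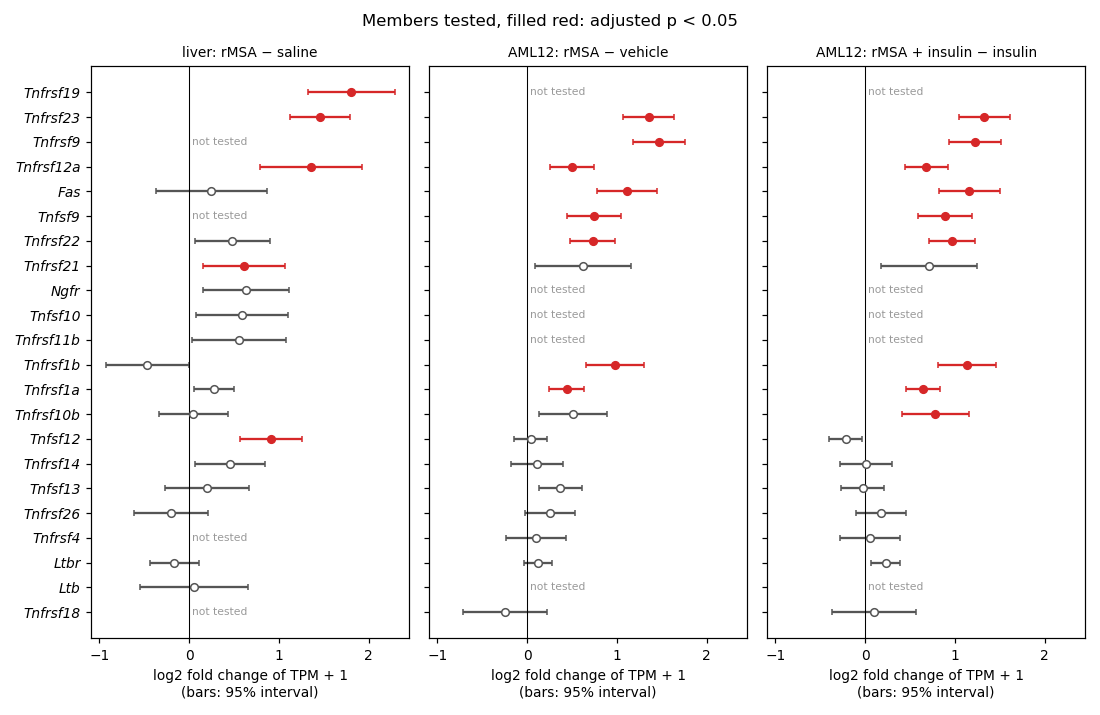
Log2 fold change of TPM + 1 with its 95% interval for the 22 members tested in either experiment, for rMSA against saline in liver, rMSA against vehicle in AML12, and rMSA + insulin against insulin in AML12, with filled red points at an adjusted p under 0.05. Tnfrsf23 and Tnfrsf12a are red in all 3 panels, and Tnfrsf1b lies left of 0 in liver and right of 0 in AML12.

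Of the 13 members tested in both experiments, Tnfrsf12a and Tnfrsf23 rose in liver and in both AML12 comparisons. Of all tested genes 21.8% rose in liver, 5.9% in AML12 without insulin and 14.5% with insulin, and the share that rose in each of them was not counted. With median centring Tnfrsf12a passed in neither AML12 comparison. Tnfrsf12a changed by 1.36 in liver, 0.50 in AML12 without insulin and 0.68 with insulin, and Tnfrsf23 by 1.46, 1.35 and 1.33, where its liver value had passed the filter only through the rMSA livers. The AML12 comparisons share 1 fit and the difference between liver and AML12 was not tested. Fas changed by 1.11 and 1.16 in AML12 and stood at 0.25 in liver, where its 95% interval was −0.37 to 0.87.

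Some markers of other liver cells changed in the liver comparison, where 21.8% of all tested genes rose and 8.38% fell. Summed TPM of 7 stellate cell markers was 112 to 234 in saline and 254 to 336 in rMSA livers, with 5 that rose, among them Col1a1 (log2 1.91) and Col3a1 (log2 2.25). Summed TPM of 5 neutrophil markers was 9.43 to 13.6 and 22.7 to 24.8, with 3 of 4 tested that rose, and of 4 cholangiocyte markers 4.24 to 7.15 and 8.83 to 14.1, with 2 of 4 that rose. Of 10 macrophage markers 1 rose and 2 fell, with sums of 550.2 to 814 and 565 to 821 TPM. Of 8 hepatocyte markers tested 2 rose and 4 fell, while their summed TPM was 80825 to 94033 in saline and 99763 to 104914 in rMSA livers. Of 4 T and NK cell markers 0 rose and 1 fell, of 2 B cell markers 1 rose, and of 6 endothelial markers 1 rose. The part of these cells in the changes of Tnfrsf19, Tnfrsf12a, Tnfrsf23, Tnfsf12 and Tnfrsf21 was not tested. In AML12 no T and NK cell, B cell, endothelial or stellate marker reached 1 TPM on average. Of all genes tested there 5.9% rose and 1.89% fell against vehicle, and 14.5% and 2.73% with insulin. Of 2 macrophage markers 0 rose and 1 fell. Of 3 cholangiocyte markers 0 changed with rMSA against vehicle, and 1 fell with rMSA + insulin against insulin. Of 4 hepatocyte markers 0 rose and 1 fell in either comparison. The hepatocyte list summed to 292 to 366 TPM under vehicle and 179 to 231 TPM with rMSA. The neutrophil marker S100a8, which was at 16.5 ± 0.9 TPM under vehicle and 64.3 ± 7.9 TPM with rMSA, rose. Camp was at 0 in all libraries of both groups. S100a9 (0 to 2.08 TPM over the AML12 libraries) and Ly6g (0 to 0.31 TPM) averaged under 1 TPM and were not tested.

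In AML12, genes that TNF is known to induce were among those that rose. This list, like the others, was chosen with earlier results of these data known. Of 31 listed and tested 14 rose and 0 fell with rMSA, where 5.9% of all tested genes rose and 1.89% fell. With rMSA + insulin against insulin 19 rose and 0 fell, where 14.5% of all tested genes rose and 2.73% fell. The medians were 0.63 and 0.94 on the log2 scale against 0.061 and 0.21 for all genes. Fitted on the compared groups alone, the counts were 26 and 10, beside 2639 and 331 genes in all. The chemokine Cxcl1 was at 97.9 ± 6.0 TPM under vehicle and 669 ± 28.8 TPM with rMSA (log2 2.76 ± 0.17, adjusted p = 6.5e-06). The acute phase gene Saa3 was at 153 ± 12.7 TPM and 2286 ± 251 TPM (log2 3.89 ± 0.25, adjusted p = 7.7e-06). Ier3, a regulator of cell survival, changed by 1.69 ± 0.05 without and 2.37 ± 0.05 with insulin, and Cxcl2 by 2.32 ± 0.21 and 3.02 ± 0.21. The mitochondrial superoxide dismutase Sod2 changed by 0.88 ± 0.08 and 1.18 ± 0.08, and Tnfaip2 by 1.45 ± 0.13 and 1.53 ± 0.13. Tnfaip2 reached the limit of 1 TPM only through the rMSA groups, with 0.49 TPM under vehicle and 0.36 TPM with insulin.

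Nfkbia and Tnfaip3, which encode feedback inhibitors of NF-kappaB, and the survival genes Birc3 and Cflar did not pass with rMSA in AML12. Their SE took in the spread of the insulin libraries, where Nfkbia was at 53.55 ± 21.4 TPM and Tnfaip3 at 13.6 ± 12.0 TPM. In the fit on vehicle and rMSA alone more listed genes passed, and its values for these genes are not given here. A missing call is therefore not evidence of no response. Nfkbia was at 84.9 ± 4.9 TPM under vehicle and 118.7 ± 5.8 TPM with rMSA (log2 0.48 ± 0.23, adjusted p = 0.31), and Tnfaip3 at 32.9 ± 4.3 TPM and 47.3 ± 6.9 TPM (log2 0.51 ± 0.51, adjusted p = 0.77). Birc3 was at 24.9 ± 1.5 TPM and 32.8 ± 4.4 TPM (adjusted p = 0.68), and Cflar, which encodes the caspase inhibitor c-FLIP, at 8.33 ± 0.59 TPM and 10.7 ± 1.3 TPM (adjusted p = 0.34). Traf1 stayed under the limit on average, at 0.29 ± 0.03 TPM under vehicle, 0.84 ± 0.32 TPM with rMSA and 2.21 ± 0.88 TPM with rMSA + insulin.

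In liver the same list held changes in both directions. Of 25 tested 6 rose and 4 fell, with a median of 0.36 against 0.12 for all genes, of which 21.8% rose and 8.38% fell. Saa3 fell from 36.8 ± 14.7 TPM to 10.3 ± 1.4 TPM (log2 −1.68 ± 0.25, adjusted p = 0.0016), and Lcn2, which encodes lipocalin 2, from 553 ± 81 TPM to 217 ± 19 TPM (log2 −1.34 ± 0.13, adjusted p = 0.00018). Cebpb fell by 0.87 and Nfkbia by 0.49 (adjusted p = 0.042). Ccl2 rose by 1.40 ± 0.27, Bcl3 by 1.22 ± 0.21, the NF-kappaB subunit gene Nfkb2 by 0.77 ± 0.14 and Tnfaip3 by 0.59 ± 0.16 (adjusted p = 0.026). Birc3 was at 7.34 ± 1.47 TPM and 8.83 ± 1.21 TPM (adjusted p = 0.33). Without saline liver 2 or rMSA liver 2 the counts were 3 up and 3 down.

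**Figure D5:**
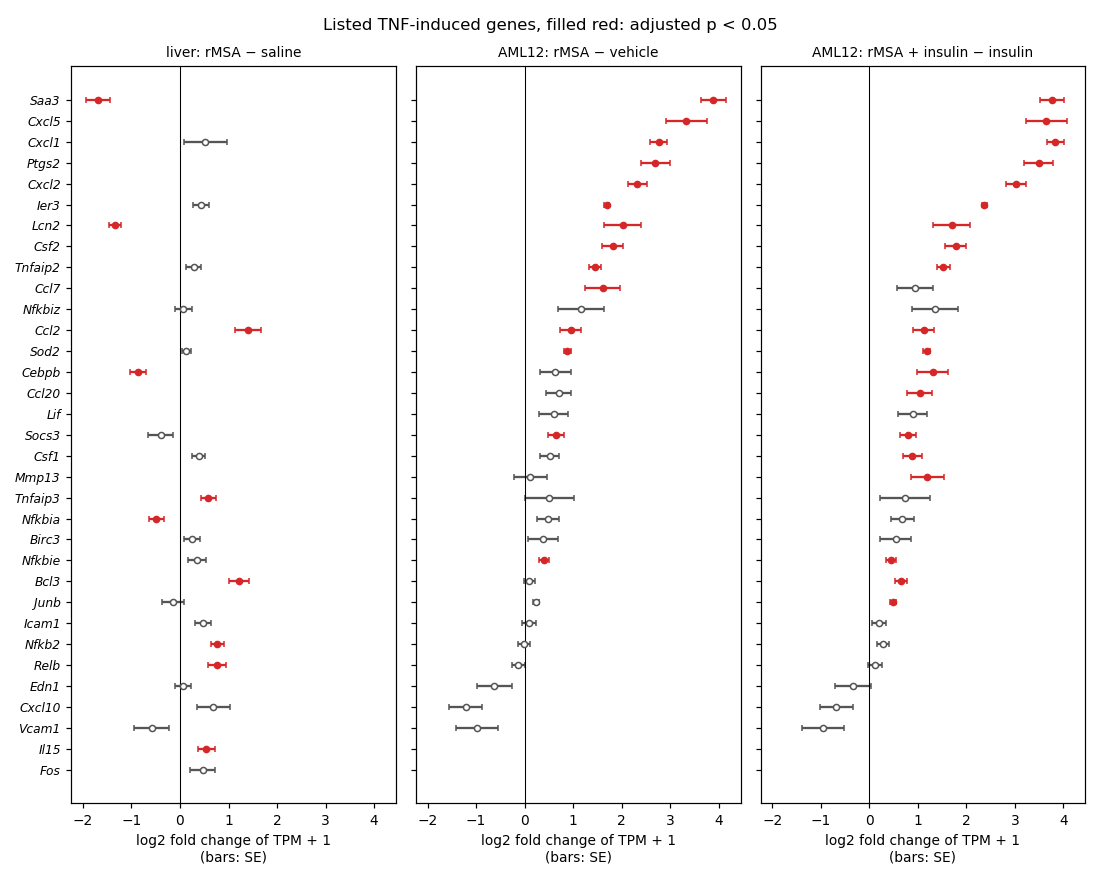
Log2 fold change of TPM + 1 with its SE for the listed TNF-induced genes tested in liver or AML12, in the same 3 comparisons, with filled red points at an adjusted p under 0.05. Saa3 and Lcn2 lie left of 0 in liver and far right of 0 in AML12.

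The next list held proteins that sit close to the receptors, such as adaptors and kinases. Of 38 tested in AML12, 2 rose and 0 fell with rMSA alone (5.9% and 1.89% of all tested genes), among them Mlkl (log2 0.67 ± 0.16, adjusted p = 0.027), the effector of necroptosis. With the replicate number as a block 0 passed. None passed without vehicle library 2 or 3 or without any one rMSA library, 1 without vehicle library 1 or any one rMSA + insulin library, and 5 and 4 without insulin library 2 and 3. With rMSA + insulin against insulin 7 rose and 0 fell (14.5% and 2.73% of all tested genes), among them Mlkl (0.89 ± 0.16), Spata2 (0.91 ± 0.22), Ikbkb (0.67 ± 0.17), the adaptor Traf2 (0.60 ± 0.13) and Traf4 (0.43 ± 0.12), while fitted on these 2 groups alone 0 passed. This count was 3 without insulin library 1, 25 without insulin library 3, and 2 without rMSA + insulin library 1 or 3. In liver 7 of 40 rose and 4 fell, with a median of 0.00, where 21.8% of all tested genes rose and 8.38% fell. Tnip1, a partner of A20, changed by 1.02 ± 0.14, Mlkl by 0.94 ± 0.21, Bid by 0.72 ± 0.16 and Map3k14, the NF-kappaB-inducing kinase, by 0.67 ± 0.17, all higher, while Map3k5 fell by 0.83 and Tab2 by 0.91. Without saline liver 2, rMSA liver 1 or rMSA liver 2 the count was 5, 6 and 5. Of the family genes outside the naming rule, the ligand Eda fell in liver from 10.97 ± 0.94 TPM to 3.25 ± 0.12 TPM (log2 −1.49 ± 0.13, adjusted p = 0.00013), and the receptor Relt rose in AML12 with rMSA + insulin against insulin (log2 0.72 ± 0.13, adjusted p = 0.0033) but did not pass without insulin (log2 0.18 ± 0.13, adjusted p = 0.57). Relt reached the limit of 1 TPM only through the rMSA groups, with 0.79 TPM under vehicle, 0.66 TPM with insulin, 1.03 TPM with rMSA and 1.73 TPM with both. Eda2r lay at 0.38 ± 0.40 and 0.66 ± 0.40 in the AML12 comparisons, neither past the test.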

How the data were processed

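RNA from 6 db/db livers and 12 AML12 libraries was sequenced after rRNA depletion and, per the labels, selection on oligo(dT) beads, on a BGISEQ-500. The submitters' processing notes name Trimmomatic 0.33, STAR 2.5.2b, featureCounts of Subread 1.6.0 and GRCm38, with gene models, strand handling and the TPM calculation not given in the sources used here. The deposited values are TPM per gene, which the authors computed, with 1 table for liver and 1 for AML12, so counts and read depth were not at hand and the count test of the study could not be run. The precision of each value therefore rests on the spread between 3 libraries.

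Members and lists were chosen with earlier results of these data known. Genes whose TPM averaged 1 or more across a table were tested by limma-trend (limma 3.58.1, R 4.3.3) on log2 of TPM + 1, with 1 mean per group, all 6 liver or all 12 AML12 libraries in a fit, and Benjamini-Hochberg adjustment over all tested genes. A gene rose or fell at an adjusted p under 0.05, and p-values cover the spread between these libraries, which may be technical in AML12. The alternatives were 0.1 or 5 TPM added, no filter or a 5 TPM filter, median centring, quantile normalization, array weights, robust empirical Bayes, the replicate block, the compared groups alone, insulin libraries 1 and 2 left out together, and each library left out. The fit was tested on simulated data with log2 changes of 1 and 2. These were placed only in genes whose log2 of TPM + 1 averaged at least 3. Of the changes of 1 the fit found 79.1% in liver and 62.3% for rMSA against vehicle. It found 79% for rMSA + insulin against insulin and 63.8% for insulin against vehicle. Members at lower levels, such as Tnfrsf23 in liver (mean 1.91 TPM) and Tnfrsf1b in AML12 (mean 2.025 TPM), are not covered by these shares. Smaller changes were not simulated. All members were named, and of each other list the 6 genes per experiment with the smallest adjusted p in a comparison with rMSA, plus Nfkbia, Tnfaip3, Birc3, Traf1 and Cflar. One gene that this rule names is not reported here. The replicate numbers of the labels were checked by the correlation of same-numbered libraries' deviations from their group means. It was 0.14 to 0.58 for rMSA against vehicle, over 0.1 in all 3 pairs. There 5 of 6 libraries correlated best with their own number, while rMSA library 2 correlated better with vehicle library 1 (0.18). The main fit paired no libraries, and the replicate number entered only as a block among the alternatives. Positions, promoters (RefSeq) and shared bases (GENCODE) are on GRCm38, matched by gene ID or symbol, and 40 of 40 members had a position.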

Additional observations from a re-analysis of the deposited data

Results flagged for a closer look

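Tnfrsf1b had every rMSA liver below every saline liver (log2 fold change −0.47, adjusted p = 0.117 by limma, not passed) and every rMSA library above every control library in AML12, by 0.98 without insulin and 1.14 with insulin. Tnfsf12 moved opposite ways as well, by 0.91 in liver and by −0.22 in AML12 with rMSA + insulin against insulin, again with separate groups on both sides, although the AML12 change did not pass (adjusted p = 0.105 by limma). Against vehicle Tnfsf12 stood at 0.039 with overlapping libraries. Separate groups were common among all tested genes. In liver 32.7% were separate and higher and 13% lower. In AML12 these shares were 25.5% and 14.2% against vehicle, and 20.7% and 4.81% with insulin. The share of genes separate in opposite directions was not counted, so the 2 genes cannot be said to stand apart. The difference between liver and AML12 was not tested, since the tables were normalized separately.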

How the results depend on the processing

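Of the tests of single members under the alternatives, 1083 kept their direction and their side of the threshold. Another 66 gained a call, 27 lost one and 36 changed sign, and the cause was not tested. These totals cover all tested members in liver and in the AML12 comparisons of rMSA with its control. For insulin against vehicle, rMSA + insulin against rMSA and the interaction they cover only the 3 members with the smallest p. Member counts left out 1 library at a time were 4 to 7 in liver, 7 to 11 for rMSA against vehicle, 9 to 12 for rMSA + insulin against insulin, 0 to 9 for insulin against vehicle and 0 to 9 for rMSA + insulin against rMSA. The liver members counted 3 with a filter at 5 TPM and 4 to 7 under every other alternative. Array weights, whose fit did not reach its convergence tolerance, gave 15 members for rMSA against vehicle, 9 for insulin, 15 for rMSA + insulin against rMSA and 10 for the interaction, beside 7358, 7140, 9882 and 3883 genes in all. For rMSA + insulin against rMSA, median centring gave 1, quantile normalization 3 and the compared groups alone 10, beside 1377, 1918 and 4640 genes in all. Signaling genes in liver were 7 with the 5 TPM filter and 5 to 10 without 1 library. Against vehicle they were 1 with 0.1 TPM added, with no filter or with the 5 TPM filter, 6 with median centring, 7 with quantile normalization, 26 with array weights, 14 with the compared groups alone and 0 to 5 without 1 library. With insulin they were 11 with quantile normalization, 29 with array weights, 0 with the compared groups alone, 11 without insulin libraries 1 and 2 and 2 to 25 without 1 library. TNF-induced genes in liver were 6 with the 5 TPM filter and 6 to 12 without 1 library. Against vehicle they were 28 with array weights, 26 with the compared groups alone and 10 to 21 without 1 library. With insulin they were 31, 10 and 15 to 26. Array weights called 7358 genes in all against vehicle and 6429 with insulin, and the compared groups alone 2639 and 331.

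Among these single-member tests, signs turned for members that had not passed. In liver, Tnfrsf10b was −0.0950 with median centring and −0.12 with quantile normalization, and Ltb −0.0860, −0.12 and, with array weights, −0.17. Against vehicle, Tnfsf12 was −0.027 and −0.020 with median centring and quantile normalization, Tnfrsf4 −0.088 with quantile normalization and −0.12 with array weights, and Tnfrsf14 −0.043 with quantile normalization. With insulin, median centring gave −0.027 for Ltbr, −0.15 for Tnfrsf18, −0.20 for Tnfrsf4, −0.25 for Tnfrsf14 and −0.076 for Tnfrsf26, and quantile normalization −0.12, −0.22, −0.25 and −0.0459 for the last 4. Array weights gave −0.33 for Tnfrsf4, and without insulin libraries 1 and 2 Tnfrsf18 was −0.34 and Tnfrsf14 −0.19. Tnfrsf23 was 0.041 for insulin with median centring. Leaving out 1 library gave −0.017 to 0.50 for Fas, −0.21 to 0.23 for Ltb and −0.048 to 0.18 for Tnfrsf10b in liver, and with insulin −0.088 to 0.11 for Tnfrsf14, −0.047 to 0.32 for Tnfrsf18, −0.057 to 0.19 for Tnfrsf4 and −0.096 to 0.058 for Tnfsf13.

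With the replicate number as a block, the members counted 4 in liver, 8 for rMSA against vehicle, 9 with insulin and 0 elsewhere, and the signaling genes 4 in liver and 0 against vehicle. Same-numbered libraries correlated at −0.41 to 0.050 in liver. For rMSA + insulin against insulin they correlated at 0.095 to 0.80, and 6 of 6 libraries correlated best with their own number. For insulin against vehicle they correlated at −0.66 to 0.024, and for rMSA + insulin against rMSA at −0.63 to 0.11. A block shared by all AML12 groups cannot absorb deviations that run in opposite directions between groups. The main fit took no replicate numbers as pairs in any comparison. The unknown read depth limits what can be said of members near 1 TPM.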
